A study of Homo sapiens with 2 samples.

Results

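The transcripts of ezrin, radixin and moesin (the ERM proteins), of the related tumour suppressor merlin, of the kinases STK10 and SLK and of the scaffold SLC9A3R1 were examined by RNA sequencing of MDA-MB-231, a human cell line long in use and derived from a triple-negative breast cancer. The 7 genes were taken by symbol (EZR, RDX, MSN, NF2, STK10, SLK and SLC9A3R1) from a deposited table of 29452 gene rows. All 7 were among the 14878 rows with at least 1 RPKM (reads per kilobase of exon, scaled to the depth of the library) in the higher library, and each exceeded 1 RPKM in both libraries. The group was chosen for its function and with the lower moesin level in the knockdown already known, so the values are a description and carry no test.

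There were 2 groups of 1 library each: cells with a short hairpin RNA against CDK14 (CDK14-sh) and cells with a scramble hairpin as the control. The CDK14 protein, a cyclin-dependent kinase, acts with cyclin Y in Wnt signalling. Whether the cells were a clone or a pool, and which hairpin sequence they carried, is not stated in the labels. With 1 library per group no difference has a replicate check, and the spread between cultures is unknown. Intervals in parentheses are 95% intervals for counting error only.

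Reads assigned to genes numbered 15478156 for CDK14-sh and 17217564 for scramble. CDK14 itself stood at 22.1% of the scramble level (16.4% to 29.4%). Of 5 markers set as high in this line, VIM, CD44, AXL and CAV1 lay between 36.1 and 146 RPKM in CDK14-sh and between 65.2 and 249 RPKM in scramble, while SPARC had 5 reads in CDK14-sh and 4 in scramble. ESR1, PGR and CDH1 had at most 8 reads in either library, while EPCAM and GATA3, set as low, reached 5.46 and 2.56 RPKM in CDK14-sh and 5.33 and 2.50 RPKM in scramble. The summed level of the 3 fibroblast markers was 0.0116 RPKM in CDK14-sh and 0.0156 RPKM in scramble, and that of the 3 endothelial markers 0.221 RPKM in CDK14-sh and 0.438 RPKM in scramble. Of 4 leukocyte markers, PTPRC alone was analysed here, with 3 reads in each library. The part of these markers in the results below was not tested.

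ERM proteins link the plasma membrane to the actin cortex. Their FERM domain binds membrane proteins and phosphoinositides, and their tail binds actin filaments once the closed, dormant form is opened by phosphorylation of a conserved threonine near the C-terminus. STK10 (also called LOK) and SLK are related kinases that phosphorylate this threonine, and SLC9A3R1 (NHERF1 or EBP50) is a scaffold whose tail binds the FERM domain. Merlin, the product of NF2, shares the FERM domain, restrains growth and acts upstream of the Hippo kinases.

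Moesin was the member that differed most. MSN, on chromosome X from 65588377 to 65741931 of the plus strand of GRCh38, measured 84.8 RPKM, from 7841 reads, in CDK14-sh and 218 RPKM, from 22363 reads, in scramble. The level in CDK14-sh was 2.56-fold lower (2.50 to 2.63). On the log2 scale with 0.1 RPKM added to each level the ratio was -1.36, the one member past 2-fold in either direction. Of all 14878 genes measured, 3.47% were lower by 2-fold or more in CDK14-sh and 3.21% were higher by as much, and of the 10434 rows matched to protein-coding genes 2.17% were lower and 1.04% higher. Over all genes these were 478 higher and 516 lower genes. In TPM, each library rescaled to a common RPKM sum, they were 609 and 1128 of 17068 genes. With mitochondrial reads left out they were 622 and 536 of 15527 genes. The filter on level was applied again after each rescaling, so more genes entered. Nothing is read from this comparison, because the moesin value helped to choose the group.

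Ezrin and radixin lay on opposite sides of no difference. EZR, on chromosome 6 from 158765741 to 158819412 of the minus strand, measured 104 RPKM in CDK14-sh, from 5358 reads, and 131 RPKM in scramble, from 7564 reads, a level 1.27-fold lower (1.23 to 1.31). RDX, on chromosome 11 from 110174880 to 110296722 of the minus strand, measured 35.6 RPKM in CDK14-sh, from 3634 reads, and 31.2 RPKM in scramble, from 3542 reads, a level 1.14-fold higher (1.09 to 1.196). The counting intervals of these ratios lay apart from each other and from that of moesin. Radixin was thus the ERM gene with a higher level in the knockdown library, by a margin that shrank to 0.038 on the log2 scale in TPM, a scale that shifts the median of all genes by -0.15.

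**Figure D1:**
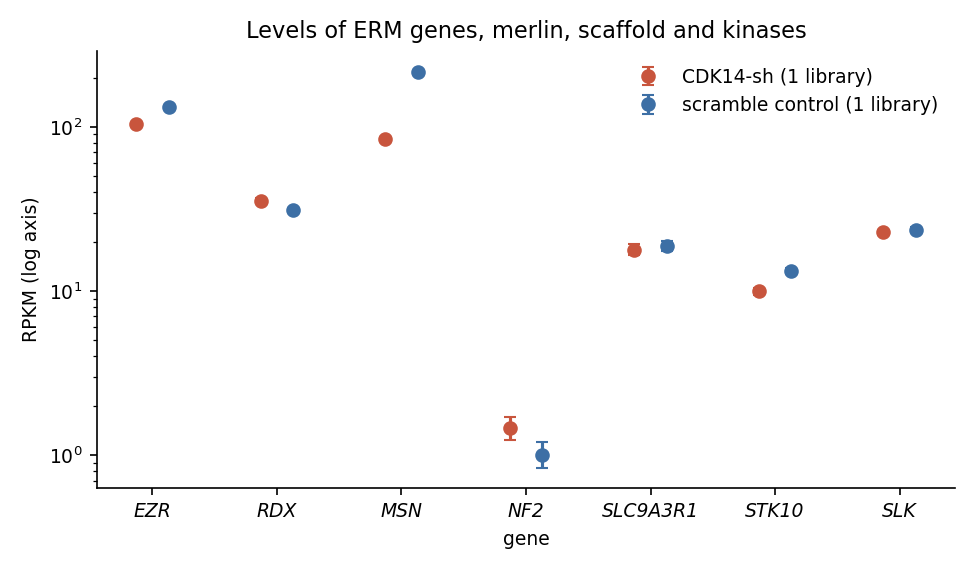
RPKM of each of the 7 genes (log axis) in the CDK14-sh library (left of each pair) and the scramble library (right), 1 library per group; bars are 95% Poisson counting intervals. MSN shows the widest gap, 84.8 RPKM in CDK14-sh against 218 RPKM in scramble, and NF2 lies lowest, at 1.46 RPKM in CDK14-sh and 1.00 RPKM in scramble.

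Merlin was scarce at the transcript level. NF2, on chromosome 22 from 29603556 to 29698598 of the plus strand, measured 1.46 RPKM in CDK14-sh, from 162 reads, and 1.00 RPKM in scramble, from 124 reads. This made it 1.45-fold higher in CDK14-sh (1.14 to 1.85), the highest ratio among the 7 genes and the one with the widest interval. With 0.1 RPKM added to each level, 91.6% of protein-coding genes had a lower ratio than NF2. The width of the NF2 interval makes this placing uncertain.

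Of the kinases that phosphorylate ERM proteins, STK10 was lower and SLK was nearly level. STK10, on chromosome 5 from 172042073 to 172188386 of the minus strand, measured 9.94 RPKM in CDK14-sh, from 1398 reads, and 13.3 RPKM in scramble, from 2083 reads, a level 1.34-fold lower (1.25 to 1.43). SLK, on chromosome 10 from 103967201 to 104029233 of the plus strand, measured 22.8 RPKM in CDK14-sh, from 2815 reads, and 23.7 RPKM in scramble, from 3253 reads. Its level was 96.3% of the scramble level, and the interval (91.5% to 101%) includes no difference. The RPKM ratio of SLK to STK10 was 2.29 in CDK14-sh and 1.78 in scramble, so SLK was the more abundant of the 2 kinase transcripts in both libraries.

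The scaffold also differed by no more than counting error. SLC9A3R1, on chromosome 17 from 74748613 to 74769353 of the plus strand, measured 17.9 RPKM in CDK14-sh, from 651 reads, and 18.8 RPKM in scramble, from 762 reads. The plain ratio was 0.950 (0.855 to 1.06), which includes no difference, so a difference within that interval was not detectable at this depth.

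**Figure D2:**
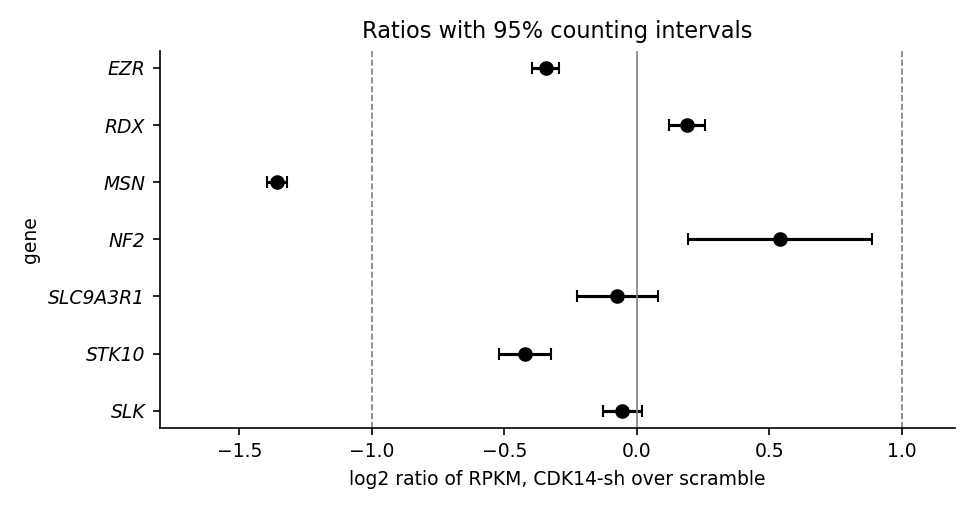
Log2 ratio of RPKM, CDK14-sh over scramble, for each gene, with 95% counting intervals as bars; the solid line marks no difference and the dashed lines 2-fold. MSN alone lies beyond a dashed line; the intervals of SLC9A3R1 and SLK cross the solid line.

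By RPKM, a scale per length on which genes can be set side by side, the order in CDK14-sh was EZR, MSN, RDX, SLK, SLC9A3R1, STK10 and NF2. In scramble the order was the same except that MSN stood above EZR. Counting intervals of neighbours in this order did not overlap in either library, but the spread between cultures is not known. The lead of EZR over MSN in CDK14-sh depended on the length used. The MSN row sums 5971 bases over the exons of its transcripts, whereas its longest protein-coding transcript in the basic GENCODE v29 set has 3944 bases; for EZR the lengths are 3342 and 3096 bases. Per base of the longest transcript, MSN led in both libraries, at 128 against 112 for EZR in CDK14-sh and 329 against 142 in scramble on that scale.

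The summed level of the ERM genes was 224 RPKM in CDK14-sh and 380 RPKM in scramble, so that it reached 58.9% of the scramble level. The difference, CDK14-sh minus scramble, was -132.7 RPKM for moesin and -156 RPKM for the sum. Without moesin, the sum of EZR and RDX was 139 RPKM in CDK14-sh and 163 RPKM in scramble. In bulk RNA, fewer cells that make a transcript and less of it per cell cannot be told apart.

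The make-up of the ERM transcripts differed accordingly. Moesin made up 37.9% of the summed RPKM in CDK14-sh and 57.2% in scramble. Ezrin made up 46.2% in CDK14-sh and 34.6% in scramble, and radixin 15.9% in CDK14-sh and 8.21% in scramble. With the longest transcript as the length, the share of moesin was 43.9% in CDK14-sh and 63.7% in scramble. The RPKM ratio of MSN to RDX was 2.38 in CDK14-sh and 6.97 in scramble, and that of EZR to RDX was 2.91 in CDK14-sh and 4.21 in scramble.

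**Figure D3:**
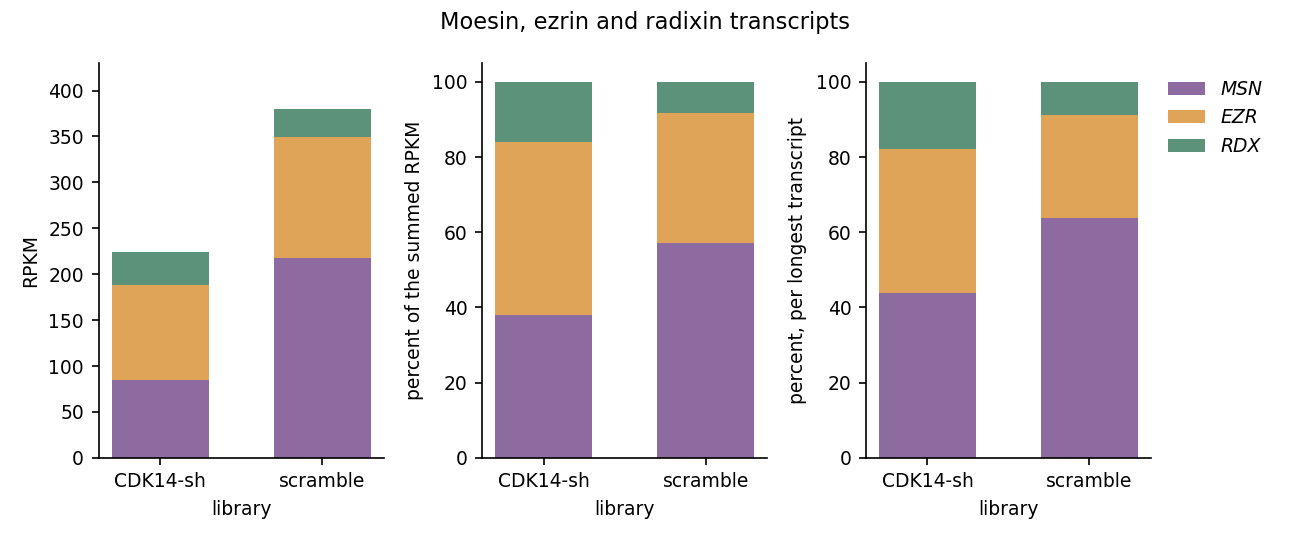
Stacked levels of MSN, EZR and RDX in the CDK14-sh library (left bar) and the scramble library (right bar), as RPKM, as percent of their summed RPKM, and as percent with the longest transcript as the length. Moesin takes 37.9% of the summed RPKM in CDK14-sh and 57.2% in scramble, and by transcript length 43.9% in CDK14-sh and 63.7% in scramble.

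Set against the kinase transcripts, the ERM sum was 6.84 times the sum of STK10 and SLK in CDK14-sh and 10.3 times in scramble. The 2 kinases summed to 32.8 RPKM in CDK14-sh and 37.0 RPKM in scramble. Relative to merlin, the ERM sum was 153 times the NF2 level in CDK14-sh and 379 times in scramble, a ratio that rests on 162 reads of NF2 in CDK14-sh and 124 in scramble.

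Moesin was an abundant transcript, ranking 324 among protein-coding genes by RPKM in CDK14-sh and 83 in scramble. Ezrin ranked 243 in CDK14-sh and 173 in scramble. There were 245 protein-coding genes with at least 100 RPKM in scramble. Of these, 6 were lower by 2-fold or more in CDK14-sh and 1 was higher by as much. MSN ranked 3 from the lowest ratio among the 245. Entry to this set was by the scramble level alone, so genes lower in CDK14-sh entered more readily. Nothing is read from these counts or from the rank within the set. Among all protein-coding genes MSN ranked 72 from the lowest ratio.

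**Figure D4:**
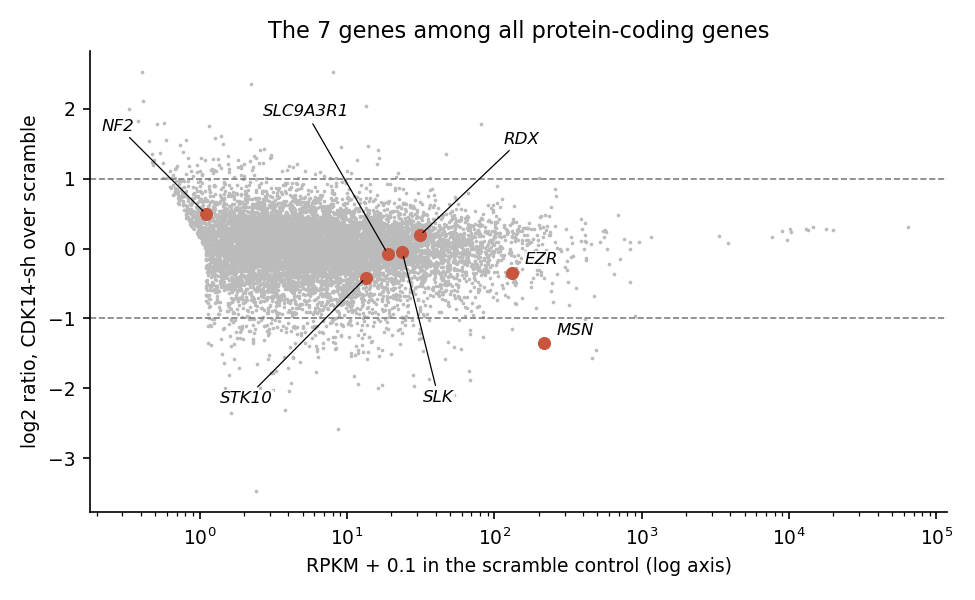
Log2 ratio (CDK14-sh over scramble, 0.1 RPKM added) against the scramble level (log axis) for measured protein-coding genes (grey) and the 7 genes (red); dashed lines mark 2-fold. MSN lies at -1.36 among abundant genes, while the other 6 lie between the dashed lines.

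The protein-coding genes nearest to each ERM gene were found by distance over the log2 levels in the 2 libraries, which is a likeness over 2 samples only. Nearest to MSN were PCBP1 (107 RPKM in CDK14-sh and 193 in scramble), CBX3 (94.0 RPKM in CDK14-sh and 154 in scramble) and SERBP1 (120 RPKM in CDK14-sh and 176 in scramble). Each differed less between the libraries than MSN did, and the nearest, PCBP1, was 1.81-fold lower. HPRT1 lay close to RDX, at 35.8 RPKM in CDK14-sh and 31.4 in scramble, followed by H2AFV and ACLY. CDC37, FKBP1A and FTH1 lay nearest to EZR, with levels from 96.8 to 99.8 RPKM in CDK14-sh and from 134 to 137 RPKM in scramble.

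A set of 4 words of 7 bases had been found earlier in the 3' untranslated regions (UTRs) of many lower transcripts of these libraries. They were picked from these same ratios, so their presence in moesin is no independent support for anything. The word GTCATGC overlaps the word TCATGCA by 6 letters, and likewise the word ATCCATA overlaps the word TCCATAA. For each gene the basic GENCODE v29 transcript with the longest 3' UTR was searched, which gave a UTR for all 7 genes. MSN, RDX and NF2 each held 1 match on the transcript strand, and EZR, SLC9A3R1, STK10 and SLK held none. The sites are shown because they set moesin beside radixin and merlin, with the matched word in capitals.
MSN, chrX:65739996-65740022, plus strand: cagccctggaGTCATGCcaagcattta
RDX, chr11:110230159-110230185, minus strand: ttaaacatttTCATGCAcagtagattc
NF2, chr22:29694871-29694897, plus strand: caagagagccATCCATAgggagctggc
The moesin site starts at base 113 of a 3' UTR of 2038 bases. Moesin was lower in CDK14-sh, whereas RDX and NF2, which hold other words of the set, were higher. GTCATGC occurred in 6.35% of the 10355 3' UTRs of measured protein-coding genes, and its reverse complement in 5.94%. At least 1 of the 4 words occurred in 28.2% of UTRs whose length lay within 20% of that of MSN, in 33.5% of those close to RDX in length and in 49.4% of those close to NF2. For EZR, SLC9A3R1, STK10 and SLK these shares were 16.9%, 9.17%, 39.1% and 45.5%. For TLN1, PTPN4, L1CAM and PRKCA, lower genes of the lists described below, they were 11.3%, 71.6%, 17.3% and 71.3%. On the transcript strand TLN1 held GTCATGC 1 time, and PTPN4 held GTCATGC and TCCATAA 1 time each. PRKCA held GTCATGC 1 time and TCATGCA 2 times, and L1CAM held none of the words. Both these genes and the words were picked by these same ratios, so nothing is read from the matches. On the reverse strand RDX, NF2, SLK and PTPN4 each held 1 match, PRKCA held 3, and MSN and the other genes searched held none. A match is a run of letters, and no binding was measured.

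A further 7 lists of genes around these proteins, with 156 distinct genes in the table besides the 7, were examined next. Of the 118 measured genes, 4 were lower by 2-fold or more in CDK14-sh, which is 3.39%, and 0 were higher by as much, beside 2.17% of protein-coding genes. Their median log2 ratio was -0.06, beside 0.03 for protein-coding genes and 0.04 for all genes. The 4 lower genes were TLN1, PTPN4, L1CAM and PRKCA, and 52 of the 118 lay above 0 and 66 below. Of the 10434 protein-coding genes 5638 lay above 0 and 4796 below, the background for the sign counts of single lists that follow. Such signs depend on the scale, and the median of the 7 lists was -0.20 in TPM.

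Among other proteins with a FERM domain, 2 of 32 measured genes were at least 2-fold lower and the median was -0.01. TLN1, encoding talin 1, which activates integrins, stood at 12.3 RPKM in CDK14-sh and 53.0 RPKM in scramble, 4.30-fold lower (4.09 to 4.51). PTPN4, encoding a tyrosine phosphatase with FERM and PDZ domains, stood at 0.709 RPKM in CDK14-sh and 1.54 RPKM in scramble, 2.18-fold lower (1.78 to 2.68), an interval that reaches below 2-fold. The count of 2 fell to 1, without PTPN4, when mitochondrial reads were left out, when 1 RPKM was added in place of 0.1 and when at least 5 RPKM was asked for, and to 1, without TLN1, over the rows overlapping no other. FRMD3 was 1.81-fold and EPB41L4B 1.77-fold lower. As many of these genes lay above 0 as below, 16 each.

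Of the membrane proteins whose tails bind ERM proteins, 1 of 10 measured genes was at least 2-fold lower, and the median was 0.05, though the mean was -0.11. The count was 0 over the rows overlapping no other, which leave out L1CAM. The median was -0.15 over those rows, -0.12 with at least 5 RPKM and -0.01 with no filter on level. Under the other scalings it stayed above 0. L1CAM, encoding a neural cell adhesion molecule, stood at 4.16 RPKM in CDK14-sh and 10.2 RPKM in scramble, 2.45-fold lower (2.21 to 2.73). MCAM was 1.71-fold and SDC2, encoding syndecan 2, 1.59-fold lower, while ICAM3 was 1.504-fold higher (1.10 to 2.07). CD44, the hyaluronan receptor and the most abundant of the partners named here, stood at 92.2 RPKM in CDK14-sh and 79.7 RPKM in scramble. ICAM1 was 1.24-fold higher (1.14 to 1.34). CD44 and ICAM1 were added after their values were seen.

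Among further kinases and phosphatases of ERM proteins, 1 of 18 measured genes was at least 2-fold lower, with a median of -0.10 that turned to 0.12 over the rows overlapping no other. At 1.5-fold, 3 of these 18 genes were lower and 1 was higher, beside 1421 lower and 1355 higher of all 14878 genes. PRKCA, encoding protein kinase C alpha, stood at 3.14 RPKM in CDK14-sh and 8.19 RPKM in scramble, 2.61-fold lower (2.36 to 2.88). The atypical protein kinase C gene PRKCI was 1.67-fold lower, while GRK2 was 1.52-fold higher.

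**Figure D5:**
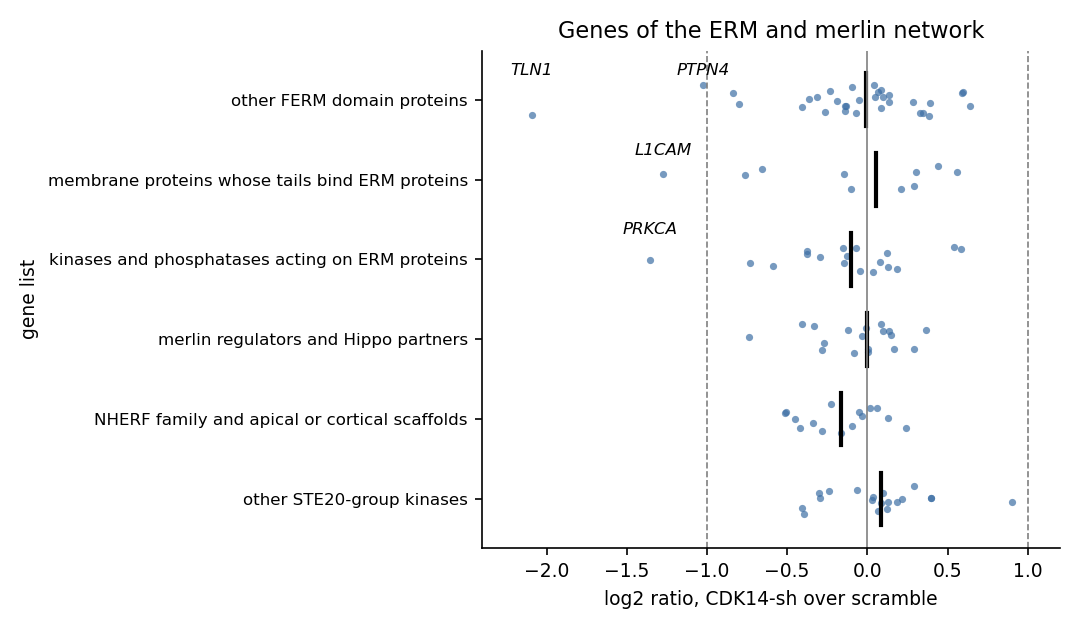
Log2 ratio (CDK14-sh over scramble) of each measured gene in 6 of the 7 lists, with 1 point per gene, the list median as a black bar and dashed lines at 2-fold. Points are spread vertically for legibility only. The 4 named genes, TLN1, PTPN4, L1CAM and PRKCA, lie beyond 2-fold lower and 0 genes beyond 2-fold higher.

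The other lists held 0 genes past 2-fold. For the 18 genes of merlin regulators and Hippo partners the median was -0.002. It came to 0.04 with mitochondrial reads left out, -0.15 in TPM and -0.28 over the rows overlapping no other. LATS2, encoding a Hippo kinase, was 1.69-fold lower, STK4 and CUL4A were 1.33-fold and 1.26-fold lower, and WWC2 was 1.30-fold higher.

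Scaffolds of the NHERF family and of the cortex had a median of -0.16 over 15 genes, of which 11 lay below 0. SLC9A3R2, the close relative of SLC9A3R1, stood at 15.5 RPKM in CDK14-sh and 21.2 RPKM in scramble, 1.37-fold lower (1.25 to 1.49). CLIC4, encoding a chloride channel family protein, was 1.34-fold lower, and MYO6 and PLS1, encoding an unconventional myosin and a plastin, were each 1.43-fold lower. The STE20-group kinases besides STK10 and SLK had a median of 0.09 over 19 genes, of which 13 lay above 0; in TPM this median was -0.07. TNIK was 1.95-fold higher (1.61 to 2.37), and PAK4 and TAOK3 were each 1.32-fold higher.

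Reads that rows could share were examined by exon overlap with the other rows for all 7 genes. By sequence, the longest transcripts of EZR, RDX and MSN were compared only with each other, with NF2 and with MSNP1. No comparison of sequence was made for STK10, SLK and SLC9A3R1, or with any other row. The longest run of bases shared by any pair of the ERM transcripts examined was 32, between MSN and EZR. MSNP1, a processed pseudogene of moesin on chromosome 5, shares a run of 113 bases with MSN and had 8 reads in CDK14-sh and 12 in scramble. Exons of EZR overlap those of the antisense row EZR-AS1 over 24 bases, and EZR-AS1 had 137 reads in CDK14-sh and 172 in scramble. Exons of SLC9A3R1 overlap an opposite-strand row over 300 bases, 12.7% of its length, and that row had 50 reads in CDK14-sh and 49 in scramble. Whether reads were counted by strand is not stated in the labels, so reads in these stretches cannot be told apart. The row of CDK14 also overlaps another row. Of the list genes named above, the rows of TLN1, L1CAM, MCAM, ICAM3, CD44, ICAM1, WWC2 and CUL4A do so too.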

How the data were processed

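Per the labels' protocols, total RNA of the cells went into a stranded mRNA library kit. In the 1 table the authors deposited, RPKM values stand beside exon positions and summed exon lengths, per the file headers. Tools named in the submitters' processing notes are Subread 1.5.1, featureCounts and Bowtie 0.12.2, and the builds mm8 and GRCh38 appear there, without roles. Positions are given on GRCh38, where GENCODE v29 genes of the same name overlapped 20579 rows and gave the gene types. How strand and multi-mapping reads were handled is not given in the sources used here.

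Multiplied by length, 100% of the nonzero values came out as whole reads to within 0.01 of a read, so reads per gene were known. In a gene of 1 kb, 3 reads equal 0.194 RPKM in CDK14-sh and 0.174 RPKM in scramble. The log2 ratio had 0.1 RPKM added to the CDK14-sh and the scramble level, so it understates differences of scarce transcripts; a gene entered if its higher level reached 1 RPKM, and 2-fold was the size that counted. Folds in the text are plain RPKM ratios with Clopper-Pearson intervals; levels carry Poisson intervals. Both cover counting error only, because 1 library per group gives no spread between cultures. They treat reads as independent molecules, which is not known, so they may be too narrow even for counting error.

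The members and lists were chosen with earlier results of these data known. Named were the 7 genes, their pseudogene and antisense rows, per list up to 4 genes of at least 30 reads with the largest ratio, and per ERM gene the 3 nearest protein-coding genes; 1 gene that the rule took and 1 of the 7 lists, whose genes stay in the totals over the lists, are not reported here. The ratio and interval steps were run on simulated Poisson reads. These hold no spread between cultures, so the run checks the computation only. The tools were scipy 1.17.1, pandas 2.3.3, numpy 2.4.6 and matplotlib 3.10.9 under Python 3.11.15.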

Additional observations from a re-analysis of the deposited data

How the results depend on the processing

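No paired analysis was possible because there was a single library on either side, which also meant that none could be left out. The members at least 2-fold lower and higher numbered 1 and 0 in each of the 8 alternatives run on them, and no member's ratio changed sign under another scaling. TPM moved the median of all genes by -0.15 log2 and gave -1.51 for MSN, -0.50 for EZR, 0.038 for RDX, -0.57 for STK10 and -0.21 for SLK. MSN stood at -1.40 with median centring, -1.40 with trimmed-mean scaling and -1.31 with mitochondrial reads left out. Over all genes the counts past 2-fold, higher then lower, were 478 and 516 of 14878. They were 609 and 1128 of 17068 in TPM and 622 and 536 of 15527 with mitochondrial reads left out. With a pseudocount of 1 RPKM they were 176 and 259, and at 1.5-fold 1355 and 1421, each of 14878. No filter on level gave 2173 and 2043 of 27836, and at least 5 RPKM gave 83 and 177 of 7933. Rows overlapping no other gave 307 and 315 of 6973. Protein-coding genes gave 109 and 226 of 10434 and a minimum of 30 reads 166 and 290 of 13299, settings chosen after seeing the data. In the 7 lists together 1 gene was higher in TPM and 1 with no filter; 7 were higher and 13 lower at 1.5-fold, and 2 lower among non-overlapping rows, a smaller set; 3 were lower without mitochondrial reads, with a pseudocount of 1 RPKM and with at least 5 RPKM. Their median was -0.20 in TPM. By reads without the length correction the shares of MSN, EZR and RDX were 46.6%, 31.8% and 21.6% in CDK14-sh and 66.8%, 22.6% and 10.6% in scramble. By the longest transcript, also chosen after seeing the data, they were 43.9%, 38.2% and 17.8% in CDK14-sh and 63.7%, 27.4% and 8.84% in scramble. Adding the reads of MSNP1 kept them within counting error. Of 126 counts of single lists in alternatives 16 moved by over 1.5 times. Each of 63 medians was set against the median lower and median upper interval limits of the genes of its list. Of these medians 9 left that range, 8 of them to lower values. The range is that of a typical gene and not the counting error of a list median. The depth limits NF2 most.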
